A study of Chlamydomonas reinhardtii with 12 samples.

Results

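The nuclear genes of the photosystem I antenna, LHCA1 to LHCA9, were followed in the green alga Chlamydomonas reinhardtii, which was grown in culture. The members were chosen by gene ID, as the rows LHCA1 (Cre06.g283050), LHCA2 (Cre12.g508750), LHCA3 (Cre11.g467573), LHCA4 (Cre10.g452050), LHCA5 (Cre10.g425900), LHCA6 (Cre06.g278213), LHCA7 (Cre16.g687900), LHCA8 (Cre06.g272650) and LHCA9 (Cre07.g344950). All 9 were present among the 17741 gene IDs of the deposited tables, and all 9 passed the filter on low counts that left 15286 genes to test. The study addressed how inositol pyrophosphates act in the response to nutrient limitation. It compared the strain vip1-1, described as deficient in these signalling molecules, with wild-type, in nutritional stress cultures grown for 14 days and in control cultures grown for 24 h. The 4 groups were vip1-1 under stress, wild-type under stress, vip1-1 in control and wild-type in control, with 3 libraries of polyadenylated RNA each. All cultures shared the strain background CC-1690, liquid TAP medium (Tris-acetate-phosphate, which supplies acetate as a carbon source), 25 °C and 50 µmol of photons per m2 and s of light. Culture age and nutrient state changed together, the labels name no single limiting nutrient, and vip1-1 is a single mutant strain with no complemented line among these samples. No check of the mutation itself was made, because the tables used pair no ID with the VIP1 gene.

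Photosystem I uses light to drive electrons from plastocyanin or cytochrome c6 to ferredoxin. In Chlamydomonas its core is surrounded by chlorophyll a/b-binding antenna proteins encoded by the LHCA genes, which collect light and pass the energy to the core. Known structures of the complex from this alga place LHCA8, LHCA7 and LHCA3 in the inner of the antenna belts and LHCA4, LHCA6 and LHCA5 in the outer, with LHCA1 in both, and LHCA2 and LHCA9 as a pair on the opposite flank of the core. VIP1 proteins are kinases that make inositol pyrophosphates, which signal nutrient state in many eukaryotes. Transcripts of antenna genes are known to be lowered in this alga when nutrients run short. Since whole cultures were measured, a lower level cannot be told apart from fewer cells carrying the transcript or less of it per cell.

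Libraries held from 9749837 to 28833327 counts in total, and the members had between 662 counts (LHCA7 in vip1-1 stress replicate 1) and 117916 counts (LHCA1 in vip1-1 control replicate 2). Levels between libraries are given as CPM, the usual per-library scaling of counts, here with the library size adjusted by TMM (trimmed mean of M values, a scaling that discounts the few genes that dominate a library). The TMM factors ran from 0.345 in wild-type control replicate 1 to 1.50 in vip1-1 stress replicate 1. Several libraries stood apart from their groups, among them replicate 3 of both control groups. The Spearman correlation across genes was 0.950 between vip1-1 control replicate 3 and wild-type control replicate 3, against 0.906 and 0.908 between vip1-1 control replicate 3 and the other libraries of its group, and 0.833 and 0.891 for wild-type control replicate 3. Wild-type control replicate 1 was also apart, at 0.898 and 0.833, and so was wild-type stress replicate 3, at 0.894 and 0.906 against 0.981 between the other libraries of its group. To a lesser degree vip1-1 stress replicate 1 was apart, at 0.930 and 0.941 against 0.980 between the other libraries of its group. LHCA2, LHCA7 and LHCA9 stood furthest above the other control libraries in control replicate 3 of both genotypes. Their values are also given without those libraries. LHCA3 and LHCA8 were highest there too, by smaller ratios.

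All 9 antenna genes fell under stress in both genotypes. Summed over the 9 genes, the level was 1574 ± 294 CPM in vip1-1 stress against 14742 ± 2984 CPM in vip1-1 control (SD, n = 3 each). In wild-type it was 1858 ± 153 CPM under stress against 14125 ± 311 CPM in control (SD, n = 3 each). As a percent of all counts, without TMM scaling, the 9 genes held between 0.131% and 0.265% of a vip1-1 stress library against between 1.68% and 2.43% of a vip1-1 control library. The same range was 0.113% to 0.234% in wild-type stress and 0.482% to 1.74% in wild-type control. For each of the 9 genes, the highest of the 6 stress libraries lay below the lowest of the 6 control libraries. The share of all genes separated in this way was not computed. It can be no larger than the share separated within each genotype, which was 24.5% lower in vip1-1 and 16.8% lower in wild-type.

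**Figure D1:**
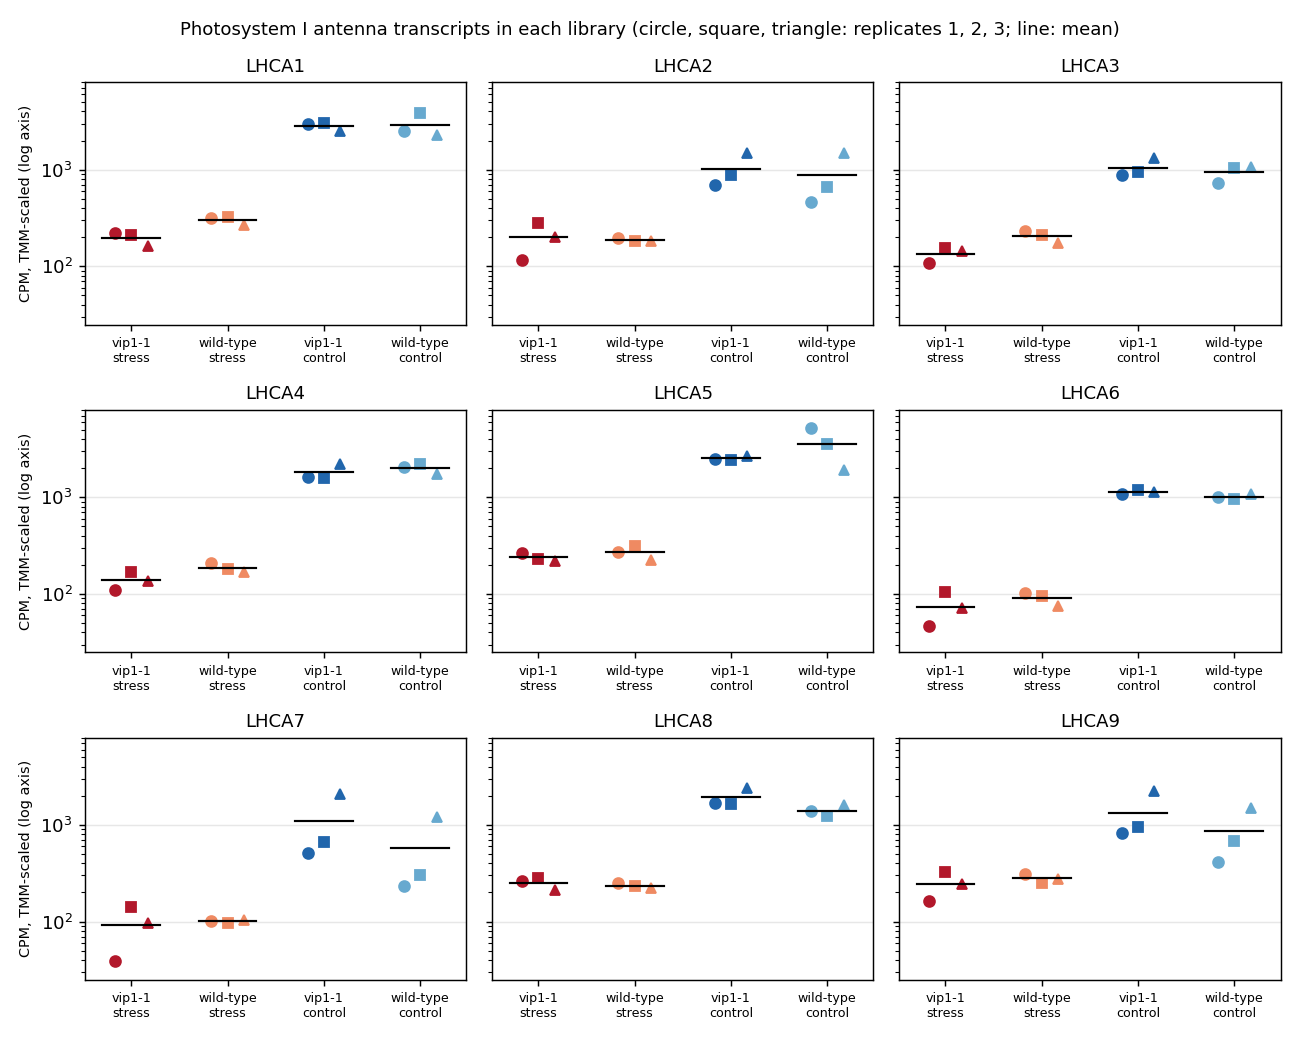
Level of each antenna gene in each of the 12 libraries, in CPM after TMM scaling on a log axis. Symbols mark the replicate number, colours the group and horizontal lines the group mean, and in all 9 panels every stress library lies below every control library. The share of all genes separated in this way was not computed.

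LHCA1, the antenna protein found in both belts, was at 221, 210 and 162 CPM in replicates 1 to 3 of vip1-1 stress, against 2998, 3022 and 2524 CPM in vip1-1 control. It was at 316, 325 and 267 CPM in wild-type stress, against 2482, 3813 and 2302 CPM in wild-type control. The groups were far apart, and the spread within a group was small beside the distance between them. The log2 fold change was -3.85 in vip1-1 (14.4-fold lower, SE 0.27, adjusted p = 9.31e-06) and -3.24 in wild-type (9.47-fold lower, SE 0.26, adjusted p = 1.65e-05), by the quasi-likelihood test of edgeR. Adjusted p-values follow Benjamini and Hochberg over all genes tested.

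The outer belt genes LHCA4, LHCA5 and LHCA6 also fell in both genotypes, by 10.6-fold to 15.3-fold. LHCA4 was at 110, 168 and 136 CPM in vip1-1 stress, against 1606, 1592 and 2224 CPM in vip1-1 control. In wild-type LHCA4 was at 209, 183 and 168 CPM under stress, against 2063, 2230 and 1759 CPM in control. Its fall was 13.1-fold in vip1-1 (log2 fold change -3.71, SE 0.25, adjusted p = 9.31e-06) and 10.8-fold in wild-type (-3.43, SE 0.25, adjusted p = 1.15e-05), both by edgeR. LHCA6, with the lowest mean length-scaled level in both stress groups, although LHCA7 was below it in 3 of the 6 stress libraries, was at 46.5, 104 and 72.3 CPM in vip1-1 stress, against 1074, 1192 and 1144 CPM in vip1-1 control. Its wild-type levels were 103, 95.6 and 74.7 CPM under stress, against 999, 963 and 1087 CPM in control. LHCA6 fell 15.3-fold in vip1-1 (log2 fold change -3.94, SE 0.30, adjusted p = 1.77e-05, edgeR), within the error of the LHCA1 fall, and 11.2-fold in wild-type (-3.48, SE 0.29, adjusted p = 2.27e-05, edgeR).

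LHCA5, at the end of the outer belt, varied most between the wild-type control libraries of the 3 outer belt genes. It was at 268, 229 and 219 CPM in vip1-1 stress, against 2485, 2401 and 2687 CPM in vip1-1 control. It was at 269, 316 and 222 CPM in wild-type stress, against 5212, 3568 and 1937 CPM in wild-type control, where the highest library was also the one with the smallest TMM factor. The wild-type fall was 13.3-fold (log2 fold change -3.73, SE 0.34, adjusted p = 3.51e-05, edgeR) and the vip1-1 fall 10.6-fold (-3.40, SE 0.34, adjusted p = 6.5e-05, edgeR). Without wild-type control replicate 1 the wild-type log2 fold changes of LHCA5, LHCA4 and LHCA6 were -3.47, -3.54 and -3.61, so their order is not settled.

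Among the inner belt genes, LHCA8 and LHCA3 had smaller fold changes than the outer belt genes, a difference between genes that was not tested, and LHCA7 varied most between replicates. LHCA8 was at 263, 282 and 212 CPM in vip1-1 stress, against 1696, 1638 and 2422 CPM in vip1-1 control. In wild-type it was at 248, 235 and 220 CPM under stress, against 1391, 1231 and 1589 CPM in control. LHCA8 was 7.61-fold lower in vip1-1 (log2 fold change -2.93, SE 0.23, adjusted p = 2.09e-05) and 5.99-fold lower in wild-type (-2.58, SE 0.23, adjusted p = 2.88e-05), both by edgeR, with the smallest standard error of the 9 in each. LHCA3, whose protein is known in this alga to be altered under iron shortage, was at 108, 156 and 143 CPM in vip1-1 stress, against 879, 941 and 1308 CPM in vip1-1 control. It was at 231, 210 and 173 CPM in wild-type stress, against 725, 1040 and 1058 CPM in wild-type control. The LHCA3 log2 fold change was -2.94 in vip1-1 (SE 0.27, adjusted p = 3.9e-05) and -2.20 in wild-type (SE 0.26, adjusted p = 0.000167), both by edgeR.

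LHCA7, between LHCA8 and LHCA3 in the inner belt, was at 38.7, 143 and 96.7 CPM in vip1-1 stress, against 510, 666 and 2107 CPM in vip1-1 control. It was at 101, 96.7 and 103 CPM in wild-type stress, against 232, 304 and 1202 CPM in wild-type control. In each control group replicate 3 was several times above the other libraries. The log2 fold change was -3.56 in vip1-1 (SE 0.76, adjusted p = 0.00615, edgeR) and -2.53 in wild-type (SE 0.73, adjusted p = 0.0252, edgeR), with the widest intervals of the 9.

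The flank genes LHCA2 and LHCA9 had the smallest falls in vip1-1, and LHCA9 also in wild-type. LHCA9 was at 162, 328 and 244 CPM in vip1-1 stress, against 821, 943 and 2261 CPM in vip1-1 control. It was at 313, 249 and 277 CPM in wild-type stress, against 416, 676 and 1484 CPM in wild-type control. The wild-type groups did not overlap, although the lowest control library was not far above the highest stress library. LHCA9 fell 5.48-fold in vip1-1 (log2 fold change -2.45, SE 0.51, adjusted p = 0.0056, edgeR) and 3.07-fold in wild-type (-1.62, SE 0.50, adjusted p = 0.0341, edgeR). LHCA2 was at 116, 282 and 203 CPM in vip1-1 stress, against 696, 890 and 1498 CPM in vip1-1 control. In wild-type LHCA2 was at 199, 184 and 185 CPM under stress, against 462, 656 and 1493 CPM in control. Its log2 fold changes were -2.36 in vip1-1 (SE 0.47, adjusted p = 0.00434, edgeR) and -2.20 in wild-type (SE 0.47, adjusted p = 0.00573, edgeR).

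Counted together, all 9 genes were called lower under stress at an adjusted p under 0.05 in vip1-1, where 11.0% of the 15286 genes tested were called lower and 12.2% higher. All 9 were also called lower in wild-type, where 12.1% were called lower and 13.9% higher. The groups of all 9 did not overlap, in a background of 24.5% of genes lower and 28.9% higher in vip1-1, and of 16.8% lower and 25.6% higher in wild-type. The median log2 fold change of the 9 was -3.40 in vip1-1 against 0.09 over all genes tested, and -2.58 in wild-type against 0.19 over all genes tested. In vip1-1 the members had between 1.09% (LHCA6) and 4.62% (LHCA2) of all tested genes below them. In wild-type they had between 2.53% (LHCA5) and 9.02% (LHCA9).

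Some of these sizes rest on the replicate 3 control libraries. Without vip1-1 control replicate 3, the vip1-1 log2 fold changes of LHCA2, LHCA7 and LHCA9 were -1.99, -2.66 and -1.85, and all stayed called by edgeR. Without wild-type control replicate 3, the wild-type values of LHCA2, LHCA7 and LHCA9 were -1.56, -1.42 and -0.97, and the calls of LHCA7 (adjusted p = 0.0917) and LHCA9 (adjusted p = 0.114) were lost in edgeR. Those calls were also lost when any 1 of the wild-type stress libraries was left out (adjusted p between 0.0589 and 0.0734 for LHCA7 and between 0.0678 and 0.0889 for LHCA9, edgeR). With both control replicate 3 libraries left out, all 9 genes were called lower in each genotype, and the wild-type log2 fold changes of LHCA7 and LHCA9 were -1.42 (adjusted p = 0.0299, edgeR) and -0.97 (adjusted p = 0.0364, edgeR).

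**Figure D2:**
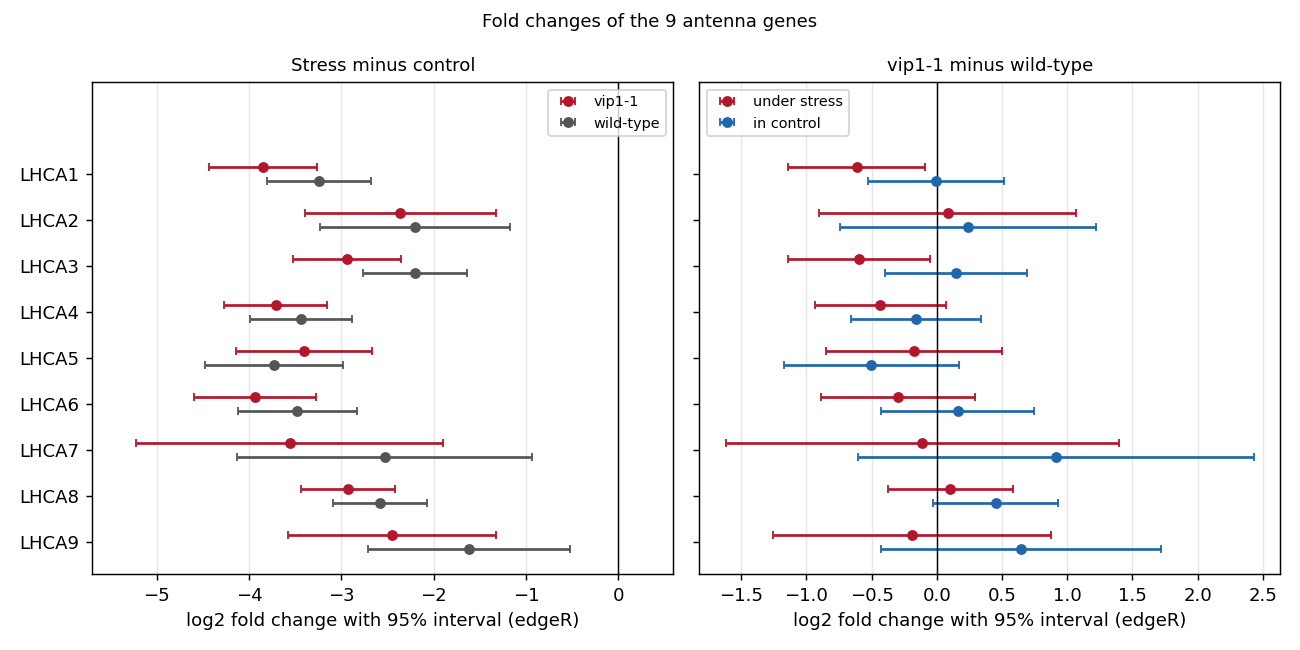
Log2 fold changes of the 9 antenna genes with 95% intervals from edgeR, for stress minus control on the left and vip1-1 minus wild-type on the right. On the left every interval lies below 0, and on the right every interval includes 0 except those of LHCA1 and LHCA3 under stress.

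The genotypes were then compared within each condition. Under stress, 0 of 9 members were called between vip1-1 and wild-type by edgeR, in a background of 0.975% of genes called higher and 0.589% lower in vip1-1. At an unadjusted p under 0.05, 2 members were lower in vip1-1, as were 7.90% of all genes tested. LHCA1 had a log2 fold change of -0.62 (95% interval -1.14 to -0.09, adjusted p = 0.235, edgeR) and LHCA3 of -0.59 (95% interval -1.14 to -0.05, adjusted p = 0.273, edgeR). Each of these genes was lower in all 3 vip1-1 stress libraries than in any wild-type stress library, as 13.7% of all genes were, while 17.7% were higher without overlap. Scaled by library totals in place of TMM, LHCA1 and LHCA3 had log2 fold changes of -0.00184 and -0.0648, while the median of all genes moved to 0.60. With DESeq2, 1 of 9 members, LHCA1, was called lower (log2 fold change -0.65, adjusted p = 0.0482). Of the 14971 genes with an adjusted p, 7.18% were called, 550 of them lower and 525 higher, so the count is near the background. Under limma voom with sample quality weights, LHCA1, LHCA3, LHCA4 and LHCA5 were called lower, at log2 fold changes of -0.86, -0.56, -0.39 and -0.43. That fit called 26.3% of the 15286 genes, 1832 of them lower and 2191 higher. In total it called 4023 genes, against 239 in the edgeR test. With edgeR and library totals, LHCA4 and LHCA5 had the other sign, at 0.11 and 0.44, below the median of 0.60.

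For the other 7 members, the vip1-1 minus wild-type log2 fold change under stress ranged from -0.43 for LHCA4 (95% interval -0.94 to 0.07) to 0.10 for LHCA8 (95% interval -0.37 to 0.58). LHCA7 had the widest interval, from -1.62 to 1.40. Without vip1-1 stress replicate 1 the LHCA7 and LHCA9 values turned from -0.11 and -0.19 to 0.26 and 0.0345. Differences within these intervals were not called by edgeR with 3 libraries per group, which does not show that the genotypes had the same levels.

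In control, 0 of 9 members were called between the genotypes by edgeR, DESeq2 or limma voom, and 0 had an unadjusted p under 0.05 in edgeR, against 6.50% of all genes. The background was 0.177% of genes called higher and 0.0785% lower in vip1-1 by edgeR, and 1.88% called by DESeq2 and 2.31% by limma voom. The LHCA1 levels were nearly the same, with a log2 fold change of -0.01 (95% interval -0.53 to 0.51). LHCA8 was the only member whose control groups did not overlap, being higher in all 3 vip1-1 libraries (log2 fold change 0.45, 95% interval -0.03 to 0.93, adjusted p = 0.812, edgeR). Without overlap, 8.18% of all genes were higher and 4.36% lower in vip1-1 control. LHCA7 and LHCA9 had log2 fold changes of 0.92 (95% interval -0.60 to 2.43) and 0.64 (95% interval -0.43 to 1.72), and LHCA5 of -0.50 (95% interval -1.17 to 0.17). The LHCA7 and LHCA9 values moved far when 1 replicate 3 library was left out and the other kept. Without wild-type control replicate 3 they were 2.03 and 1.30 (adjusted p = 0.111 and 0.144, edgeR), and LHCA2 was at 0.88 against 0.24 with all libraries. Without vip1-1 control replicate 3 they were 0.0195 and 0.0385, and LHCA2 turned to -0.13. With both libraries left out LHCA7 was at 1.13 and LHCA9 at 0.69, no smaller than with all libraries, and LHCA2 was at 0.50.

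The control libraries with the same number deviated together, so the genotypes were also compared within the 3 pairs. LHCA2, LHCA6, LHCA7, LHCA8 and LHCA9 were higher in vip1-1 control than in wild-type control in all 3 pairs, and 0 members were lower in all 3. That is 5 of 9, where 23.6% of all genes were higher and 13.9% lower in all 3 pairs. These 5 come from the same libraries and are not separate observations. With group means removed, LHCA2 had a correlation of 0.984 with LHCA7 and 0.970 with LHCA9, and LHCA7 and LHCA9 of 0.972. Among the 5, pairs with LHCA6 or LHCA8 had lower correlations, from 0.215 (LHCA6 with LHCA8) to 0.649 (LHCA8 with LHCA9). With a replicate block fitted to the control libraries alone, 0 of 9 members were called, and the log2 fold changes of LHCA7, LHCA9 and LHCA8 were 1.03, 0.69 and 0.44 (adjusted p = 0.335, 0.436 and 0.517, edgeR).

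Whether the antenna genes responded differently to stress in vip1-1 than in wild-type was tested as an interaction (the vip1-1 response minus the wild-type response). It was called for 0 of 9 members by edgeR, with 0 at an unadjusted p under 0.05 against 3.64% of all genes higher and 4.36% lower, and for 0 by DESeq2 and by limma voom. In that test 0.0327% of genes were called higher and 0.00654% lower by edgeR, and 1.50% were called by DESeq2 and 3.26% by limma voom. The estimate was below 0, meaning a larger fall in vip1-1, for 8 of 9 members. Most genes tested had that sign too, and the median over the 9 was -0.46 against -0.10 over all genes tested. The exact share of genes below 0 was not counted. It was at most 71.2%, the share of genes below the LHCA5 estimate. The 9 estimates come from the same libraries, so their signs are not separate observations. LHCA3 came nearest to the threshold, at -0.74 (95% interval -1.51 to 0.03, adjusted p = 0.636, edgeR), followed by LHCA1 at -0.61 (95% interval -1.34 to 0.13, adjusted p = 0.691, edgeR). LHCA5 was the exception in sign, at 0.33 (95% interval -0.63 to 1.28), and its sign turned without wild-type control replicate 1. LHCA7 and LHCA9 were at -1.03 and -0.83 with all libraries, at -2.14 and -1.49 without wild-type control replicate 3, and at -0.13 and -0.23 without vip1-1 control replicate 3, with no call in any of these fits. In the same fits LHCA2 was at -0.16, -0.80 and 0.22, also without a call.

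Levels of different members were compared only per transcript length, from the deposited FPKM values (fragments scaled to transcript length and to library size). Each member was expressed as its share of the summed FPKM of the 9 genes in the same library, which does not depend on how that library was scaled. In the control libraries the members ranked between place 52 (LHCA5 in wild-type) and place 357 (LHCA7 in wild-type) of the 17741 IDs by FPKM. In the stress libraries they ranked between place 137 (LHCA8 in vip1-1) and place 1046 (LHCA7 in vip1-1).

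The order of the members differed by group. In vip1-1 stress LHCA8 came first, with a share of 23.0% ± 4.17, followed by LHCA5 at 14.5% ± 3.75, LHCA9 at 12.4% ± 2.26, LHCA2 at 11.3% ± 2.98 and LHCA1 at 10.4% ± 2.59 (SD, n = 3). LHCA4, LHCA3, LHCA7 and LHCA6 followed, at 7.94%, 7.56%, 6.94% and 5.87%. The steps from LHCA8 to LHCA5 and from LHCA1 to LHCA4 were beyond the spread of the libraries, and the ranges of all other neighbours overlapped. In wild-type stress LHCA8 was again first, at 18.3% ± 0.469, ahead of LHCA5 (13.8% ± 1.86), LHCA1 (13.5% ± 0.646) and LHCA9 (12.5% ± 1.42), whose ranges overlapped. A group of LHCA3, LHCA2 and LHCA4 came next, at 9.84%, 9.54% and 9.31%, and LHCA7 and LHCA6 were last, at 6.81% and 6.36%.

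In vip1-1 control LHCA8 (18.4% ± 0.717), LHCA1 (16.3% ± 4.49) and LHCA5 (16.3% ± 2.40) overlapped at the top, and among neighbours in the order only LHCA5 and LHCA4 had ranges that did not overlap. LHCA4 had 11.1% ± 0.311, LHCA6 10.1% ± 1.90 and LHCA7 8.40% ± 4.94. LHCA9, LHCA2 and LHCA3 were last, at 7.02%, 6.21% and 6.18%. In wild-type control LHCA5 led with 24.2% ± 11.3 (35.5%, 24.0% and 13.0% in replicates 1 to 3), followed by LHCA1 (16.9% ± 4.81), LHCA8 (14.4% ± 1.81) and LHCA4 (13.3% ± 1.60), with overlapping ranges. LHCA6 held 9.39% ± 0.564, below LHCA4 in all 3 libraries, and LHCA3, LHCA2, LHCA7 and LHCA9 lay between 5.97% and 5.04% with overlapping ranges.

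**Figure D3:**
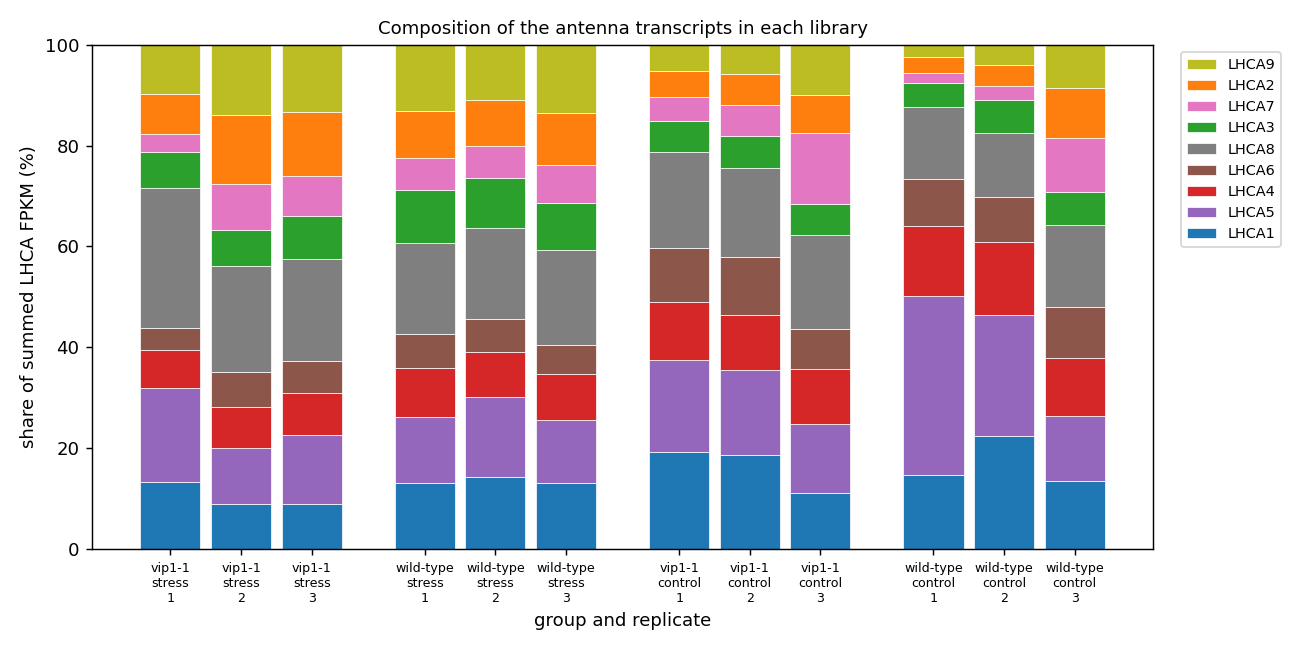
Share of each antenna gene in the summed FPKM of the 9 genes, in percent, in each of the 12 libraries. LHCA4 and LHCA6 hold less and LHCA3 more in every stress library than in any control library, and LHCA7, LHCA2 and LHCA9 are larger in control replicate 3 of both genotypes than in the other control libraries.

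The composition of the antenna transcripts also differed between stress and control. The outer belt genes LHCA4 and LHCA6 lost share. LHCA4 was between 7.42% and 9.78% in the 6 stress libraries, against between 11.0% and 14.6% in the 6 control libraries. LHCA6 was between 4.43% and 6.94% under stress, against between 7.93% and 11.5% in control. The inner belt gene LHCA3 gained share, with between 7.03% and 10.4% under stress against between 4.65% and 6.67% in control. None of these 3 overlapped between stress and control, and LHCA8 gained share without overlap within each genotype. The flank genes LHCA2 and LHCA9 together held 23.8% ± 5.24 in vip1-1 stress against 13.2% ± 3.73 in vip1-1 control, and 22.1% ± 1.93 in wild-type stress against 10.8% ± 6.83 in wild-type control (SD, n = 3 each). Their vip1-1 ranges, 17.8% to 27.5% and 10.3% to 17.4%, did not overlap, nor did the wild-type ranges, 20.0% to 23.8% and 5.56% to 18.5%. Singly, LHCA2 overlapped between stress and control in wild-type and LHCA9 in vip1-1. LHCA1, LHCA5 and LHCA7 overlapped in each genotype. The 3 outer belt genes together held 28.3% ± 2.14 in vip1-1 stress against 37.5% ± 4.36 in vip1-1 control, and 29.5% ± 2.00 in wild-type stress against 46.8% (34.5% to 58.6%) in wild-type control (SD or range, n = 3 each), with no overlap in either genotype. The inner belt genes LHCA3, LHCA7 and LHCA8 together held 37.5% ± 0.808 in vip1-1 stress against 33.0% ± 5.16 in vip1-1 control, where the ranges overlapped. In wild-type these 3 held 35.0% ± 0.680 under stress against 25.5% ± 6.95 in control, without overlap. These shares are descriptions and were not tested, and their separations have no background over all genes. The shares of a library have a fixed sum, so a loss by some members raises the share of others.

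Between genotypes, the share ranges of LHCA8 and LHCA4 did not overlap under stress or in control. LHCA1, LHCA2, LHCA5, LHCA6, LHCA7 and LHCA9 overlapped in both conditions. With 3 libraries per group and no matching share over all genes, these separations have no background and were not tested. LHCA8 held 20.3% to 27.8% in vip1-1 stress against 18.0% to 18.8% in wild-type stress, and 17.6% to 18.9% in vip1-1 control against 12.6% to 16.2% in wild-type control. LHCA4 was on the other side, with 7.42% to 8.37% in vip1-1 stress against 8.95% to 9.78% in wild-type stress, and 11.0% to 11.5% in vip1-1 control against 11.5% to 14.6% in wild-type control, where the ranges came close to touching. LHCA3 held 7.03% to 8.47% in vip1-1 stress against 9.17% to 10.4% in wild-type stress, and overlapped in control. With shares of CPM, which are not divided by length, LHCA3, LHCA4 and LHCA8 separated the genotypes in the same way, and LHCA3, LHCA4 and LHCA6 separated stress from control. That is not separate evidence, because the count and FPKM of a gene keep a nearly fixed ratio once scaled to the library total.

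The members also differed in how much they varied within the control groups. In replicate 3 the level of LHCA7 was 3.58 times the mean of replicates 1 and 2 in vip1-1 and 4.48 times in wild-type. LHCA9 was 2.56 times that mean in vip1-1 and 2.72 times in wild-type, and LHCA2 was 1.89 and 2.67 times. LHCA6 was nearly level, at 1.01 and 1.11 times. LHCA1 was below it in both, at 0.839 times in vip1-1 and 0.731 times in wild-type. LHCA5 was at 1.10 times in vip1-1 and 0.441 times in wild-type. As a result, LHCA2, LHCA7 and LHCA9 together took 15.2%, 18.2% and 31.5% of the antenna FPKM in vip1-1 control replicates 1 to 3, and 7.64%, 11.0% and 29.2% in wild-type control. In vip1-1 stress they took 21.3%, 36.8% and 34.0%, and in wild-type stress 28.8%, 26.4% and 31.5%. The share in control replicate 3 of each genotype was thus within the range of the stress libraries, while the summed level of the 9 genes there was 18175 CPM in vip1-1 and 13912 CPM in wild-type, the level of a control library.

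**Figure D4:**
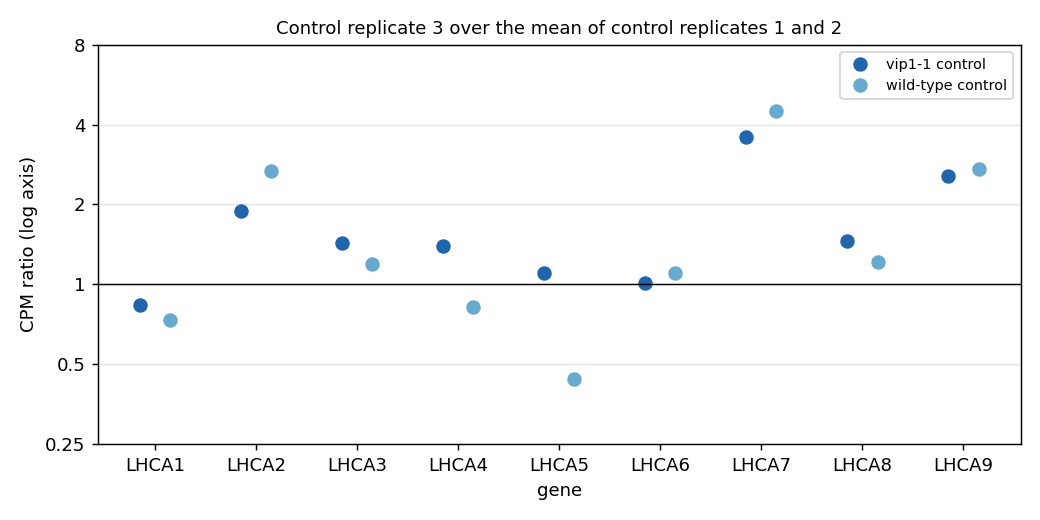
Ratio of the CPM level in control replicate 3 to the mean of control replicates 1 and 2, on a log axis, for each antenna gene in vip1-1 and wild-type. LHCA7 has the highest ratio in both genotypes, 3.58 and 4.48, and LHCA1 lies below 1 in both.

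Outside the family, the genes whose log2 CPM over the 12 libraries was most like the mean standardised profile of the 9 were Cre12.g486300 (Pearson's r 0.997) and Cre06.g270050, of 8037 genes with a mean of at least 10 CPM. The distance between stress and control libraries sets most of this likeness, and 194 of the 8037 genes had an r above 0.95. Cre12.g486300 was at 219, 350 and 277 CPM in vip1-1 stress, against 1454, 1432 and 2212 CPM in vip1-1 control. It was at 389, 335 and 367 CPM in wild-type stress, against 1160, 1383 and 1875 CPM in wild-type control. The fall was smaller than that of most antenna genes, with log2 fold changes of -2.59 in vip1-1 (SE 0.28) and -2.02 in wild-type (SE 0.27). Cre06.g270050 was far less abundant, at 0, 32 and 11 counts in vip1-1 stress, against 546, 857 and 1747 counts in vip1-1 control. The reference table gives neither gene a name.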

How the data were processed

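Polyadenylated RNA was sequenced from 12 cultures in 4 groups of 3, with Illumina's TruSeq Stranded mRNA protocol per the labels. The authors deposited raw read counts per gene, and FPKM values for the same IDs. The deposited FPKM are scaled to the library total: for each member, the ratio of count to FPKM, divided by that total, had an SD over the libraries of at most 0.417% of its mean. HISAT2 and StringTie are named in the submitters' processing notes; versions, build, annotation and strand setting are not given in the sources used here, so reads from antisense transcripts cannot be told apart.

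The count test was run in edgeR 4.0.16 (R 4.3.3), with filterByExpr by group, TMM scaling, a group-means fit to all 12 libraries, robust quasi-likelihood tests of 5 contrasts, and Benjamini-Hochberg adjustment over 15286 genes (threshold 0.05). Standard errors were taken as the absolute log2 fold change over the square root of F. Alternatives used DESeq2 1.42.0, limma 3.58.1, other scalings and filters, a replicate block, and fits without single libraries. P-values measure the spread between libraries that the labels call biological replicates.

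Same-numbered libraries deviated together between the control groups (correlation across genes 0.24, 0.31 and 0.52 for replicates 1 to 3), above the level of 0.1 set for calling numbers paired; in every other group pair at least 1 number was below it. The pairing of the control libraries comes from this check alone. Deviations from a mean of 3 libraries cancel out, so a shared replicate 3 alone can raise the values of replicates 1 and 2. By Spearman correlation, vip1-1 control replicates 2 and 3 were nearest the same-numbered wild-type control library (0.935 and 0.950). Replicate 1 was not, at 0.879 against 0.935 and 0.921 for wild-type control replicates 2 and 3.

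The members and lists were chosen with earlier results of these data known. All 9 members were named, and outside them the 2 genes most like their mean profile. Member names come with the list of IDs: the reference table of assembly v5.5 matched all 9 IDs but gave 0 symbols. Lists of related genes and of photosystem I core genes were therefore not used here, and no sequence or coordinate is printed. No column was left without a sample.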

Additional observations from a re-analysis of the deposited data

How the results depend on the processing

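The stress fall of all 9 genes was called under each of the 15 alternatives run in vip1-1, and of 7 to 9 genes in wild-type, where LHCA7 and LHCA9 lost their calls under 6 of 15 each, with no change of sign. Of these, scaling by library totals gave adjusted p = 0.0651 and 0.138 and fitting only the groups compared 0.0501 and 0.0709, in edgeR. The genotype comparison under stress called 1 member with DESeq2 and 4 with limma voom. In control and in the interaction 0 members were called under any of the 16 and 20 alternatives. The replicate block changed no call of a member: 9, 9, 0, 0 and 0 were called in the 5 contrasts.

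Calls over all genes ranged from 904 to 10225 (3544 in the main test) for stress in vip1-1, 1035 to 6173 (3979) for stress in wild-type, 53 to 4023 (239) for genotype under stress, 0 to 849 (39) in control, where 0 came from the control libraries alone with the block, and 0 to 499 (6) for the interaction. The cause was not tested.

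Signs turned only for genotype and interaction values, none of them called in the main test or in the fit where the sign turned. LHCA4 and LHCA5 under stress, which limma voom called lower, were among those that turned with library totals. Scaling by library totals moved the median log2 fold change of all genes to 0.60 under stress and 0.69 in control (vip1-1 minus wild-type). There, LHCA4, LHCA5, LHCA6, LHCA7 and LHCA9 were at 0.11, 0.44, 0.24, 0.43 and 0.34 under stress and LHCA1, LHCA4 and LHCA5 at 0.60, 0.50 and 0.38 in control, all below that median, and the LHCA2 interaction was 0.000434. For LHCA1 in control the value was 9.36e-05 with RLE factors, 0.0242 with 10 counts in every library, 0.0118 with the replicate block and 0.0241 in the control libraries alone with that block. With limma voom, LHCA7 and LHCA8 were at 0.10 and -0.0269 under stress and the LHCA4 interaction was 0.00471. With the block, LHCA2 was at -0.0111 under stress.

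Fits without single libraries gave, under stress, -0.24 to 0.36 for LHCA2, -0.57 to 0.26 for LHCA7 and -0.46 to 0.0345 for LHCA9. In control they gave -0.14 to 0.30 for LHCA1, -0.13 to 0.88 for LHCA2 and -0.0487 to 0.26 for LHCA3, and for the interaction -0.80 to 0.22 for LHCA2 and -0.0663 to 0.62 for LHCA5. Of 36 group means of the shares, 18 moved by more than 1 SD when CPM replaced FPKM, which leaves out length by construction. The fit with both control replicates 3 left out and that of the control libraries alone were chosen after seeing the data.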
